A study of Mus musculus with 16 samples.

Results

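Interferon response genes were described across liver tumors and nontumor liver of mice on a ketogenic or a normal diet. The set held 38 genes chosen by symbol from a fixed list, out of 20601 genes in the expression table. All 38 were in the table, and all 38 passed the filter on low values. By role they were 4 transcription factors, 3 sensors of nucleic acids, 17 effectors typical of type I interferon, 9 GTPases typical of interferon gamma, 2 chemokines and 3 genes of antigen presentation.

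RNA-seq of polyadenylated RNA was run on 16 samples of 8 mice, with 4 samples in each of 4 groups. Every mouse, controls included, had received 19 µg of a human N-Ras plasmid, 1 µg of a human c-Myc plasmid and 2 µg of a plasmid for Sleeping Beauty transposase by hydrodynamic delivery, a method that puts plasmids mainly into hepatocytes. The KD tumor and KD nontumor groups came from mice given a ketogenic diet of 0.1% carbohydrate, 89.5% fat and 10.4% protein from week 4, for 4 weeks. The ND tumor and ND nontumor groups came from mice kept on the normal diet over the same time. All tissue was taken at week 8, and nontumor liver came from the same plasmid-injected animals, so no liver without the plasmids was compared. The labels used here gave neither strain nor age. Tumor and nontumor samples were taken from 1 set of 8 animals, which makes them only partly independent, and the p-values reflect how these samples scatter.

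Interferons are secreted proteins that warn cells of infection and other danger. Type I interferons act through the receptor chains IFNAR1 and IFNAR2 and a complex with STAT2 and IRF9 that binds the interferon-stimulated response element (ISRE). Interferon gamma, made mainly by T and NK cells, acts through IFNGR1 and IFNGR2 and on genes that carry a gamma-activated site (GAS). In liver, hepatocytes and Kupffer cells both respond, and many target genes answer both kinds of interferon.

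The promoters of 5 members are shown because these genes had the smallest p-values in 5 of the 6 role groups among called members with a matched RefSeq promoter. Each is the 250 bases before the RefSeq gene start (GRCm38.p6), on the gene's strand, with any match to the ISRE core (GAAA, any 2 bases, GAAA) or the GAS core (TTCNNNGAA) in capitals. They lie at chr3:151749911-151750160 (Ifi44, minus strand), chr11:58214727-58214976 (Irgm2, plus), chr5:92328080-92328329 (Cxcl9, minus), chr10:128270248-128270497 (Stat2, plus) and chr2:122147437-122147686 (B2m, plus).
Ifi44: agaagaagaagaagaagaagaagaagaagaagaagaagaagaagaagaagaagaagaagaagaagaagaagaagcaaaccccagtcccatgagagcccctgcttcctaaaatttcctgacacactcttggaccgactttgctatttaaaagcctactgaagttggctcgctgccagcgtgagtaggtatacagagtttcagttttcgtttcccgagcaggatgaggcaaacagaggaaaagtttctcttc
Irgm2: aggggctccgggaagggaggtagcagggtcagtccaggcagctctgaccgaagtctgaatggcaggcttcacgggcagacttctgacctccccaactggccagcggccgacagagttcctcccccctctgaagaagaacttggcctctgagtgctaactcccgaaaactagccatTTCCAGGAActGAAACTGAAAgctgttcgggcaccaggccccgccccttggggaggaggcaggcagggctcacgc
Cxcl9: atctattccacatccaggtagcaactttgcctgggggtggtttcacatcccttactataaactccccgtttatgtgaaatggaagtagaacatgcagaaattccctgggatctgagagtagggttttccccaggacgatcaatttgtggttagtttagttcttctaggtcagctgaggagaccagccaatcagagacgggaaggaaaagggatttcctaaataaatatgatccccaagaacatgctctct
Stat2: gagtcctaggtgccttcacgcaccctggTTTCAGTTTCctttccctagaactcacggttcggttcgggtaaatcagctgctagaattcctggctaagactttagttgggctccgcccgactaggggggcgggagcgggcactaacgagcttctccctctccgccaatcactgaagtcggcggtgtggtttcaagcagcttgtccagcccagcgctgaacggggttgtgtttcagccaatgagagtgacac
B2m: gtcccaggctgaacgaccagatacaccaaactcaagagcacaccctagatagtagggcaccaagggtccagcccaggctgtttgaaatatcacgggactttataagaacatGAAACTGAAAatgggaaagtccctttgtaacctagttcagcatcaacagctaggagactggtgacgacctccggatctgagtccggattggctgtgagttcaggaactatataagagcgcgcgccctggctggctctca
The Irgm2 window held a GAS core that begins 75 bases before the start and an ISRE core that begins 64 bases before it. An ISRE core began 222 bases before the start of Stat2 and 139 bases before that of B2m, the Stat2 match being on the opposite strand. In the windows of Ifi44 and Cxcl9 neither string of letters was found.

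Of the 38 members, 28 had a promoter entry in RefSeq. The ISRE core, searched on both strands, was in 16 of these 28 windows (57.1%), and in 936 of the 27025 windows of all genes (3.46%). The GAS core was in 7 of 28 windows (25%), against 2197 of 27025 (8.13%). Among the 9 type I genes set apart for comparison (the Ifit and Oas genes and Isg15), 5 of 8 windows held the ISRE core and 2 of 8 the GAS core. Among the 7 gamma-type genes set against them (the Gbp and Irgm genes and Cxcl9), 5 of 6 windows held the ISRE core and 2 of 6 the GAS core. A match is a description of the sequence and not a site shown to be bound.

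Levels are TPM, a relative transcript abundance corrected for transcript length, rescaled so that the median gene has the same level in every library. The rescaling was needed because the listed genes made up 7.38% of the TPM total in ND nontumor 4 and 49.96% to 88.45% in the other 15 libraries. The share was 77.05% to 79.93% in KD tumor, 66.79% to 88.45% in KD nontumor and 49.96% to 66.48% in ND tumor. All ND tumors lay below all KD tumors, and the part of this in the diet comparison of tumors was not tested. Reads recovered for these genes numbered 8857970 to 14074042 per library for KD tumor, 5676970 to 11039834 for KD nontumor, 6850905 to 9772625 for ND tumor and 3518966 to 8686548 for ND nontumor. Log2 fold changes are on the log2(rescaled TPM + 1) scale, which understates changes of weakly expressed genes, and each comes from a limma fit of 13432 genes with Benjamini-Hochberg adjusted p-values and a threshold of 0.05. Summed levels of 11 hepatocyte genes, such as Alb, were 126236 to 176519 TPM in KD tumor and 31118 to 88412 in KD nontumor, and for the normal diet 67194 to 122849 in tumor and 46976 to 86494 in nontumor liver, so hepatocyte RNA was abundant in all groups. In bulk tissue, fewer cells of a type and less RNA per cell cannot be told apart.

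Tumors carried higher RNA of a few interferon genes and lower RNA of others, so the set did not move as a block. On the ketogenic diet, 8 of 38 members were higher in tumor than in nontumor liver (21.1%, against 16.3% of all tested genes) and 5 were lower (13.2%, against 16.2%). On the normal diet, 8 members were higher in tumor (21.1%, against 14.5% of all genes) and 2 were lower (5.26%, against 14.2%). Set against these backgrounds, the higher counts were somewhat above the share of all genes, the lower counts were below it, and the set as a whole was not tested. The median log2 fold change of the 38 members was 0.16 on the ketogenic diet, with 24 members above 0, and 0.34 on the normal diet, with 30 above 0, while the medians of all genes were 0.01 and 0. With 1 library left out the ketogenic-diet median of the members was 0.09 (without KD tumor 1) to 0.25 (without KD tumor 2), and the normal-diet median was 0.22 (without ND tumor 1) to 0.44 (without ND tumor 3). Higher in tumor on both diets were Ifi44, Cxcl9, Oas1a, Irgm2 and Iigp1, which were 5 of the 8 on each diet (62.5%), and Irf9 was lower on both. The overlap between diets was not counted over all genes, so the 62.5% has no background beside it. On the deposited scale, with no rescaling, 1 member was higher and 0 were lower on the ketogenic diet, and 3 were higher and 0 lower on the normal diet. Of all 13432 tested genes, 387 were higher and 724 lower there on the ketogenic diet. On the normal diet 1094 were higher and 324 lower. On that scale the median of all genes moved to -0.26 on the ketogenic diet and 0.42 on the normal diet.

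**Figure D1:**
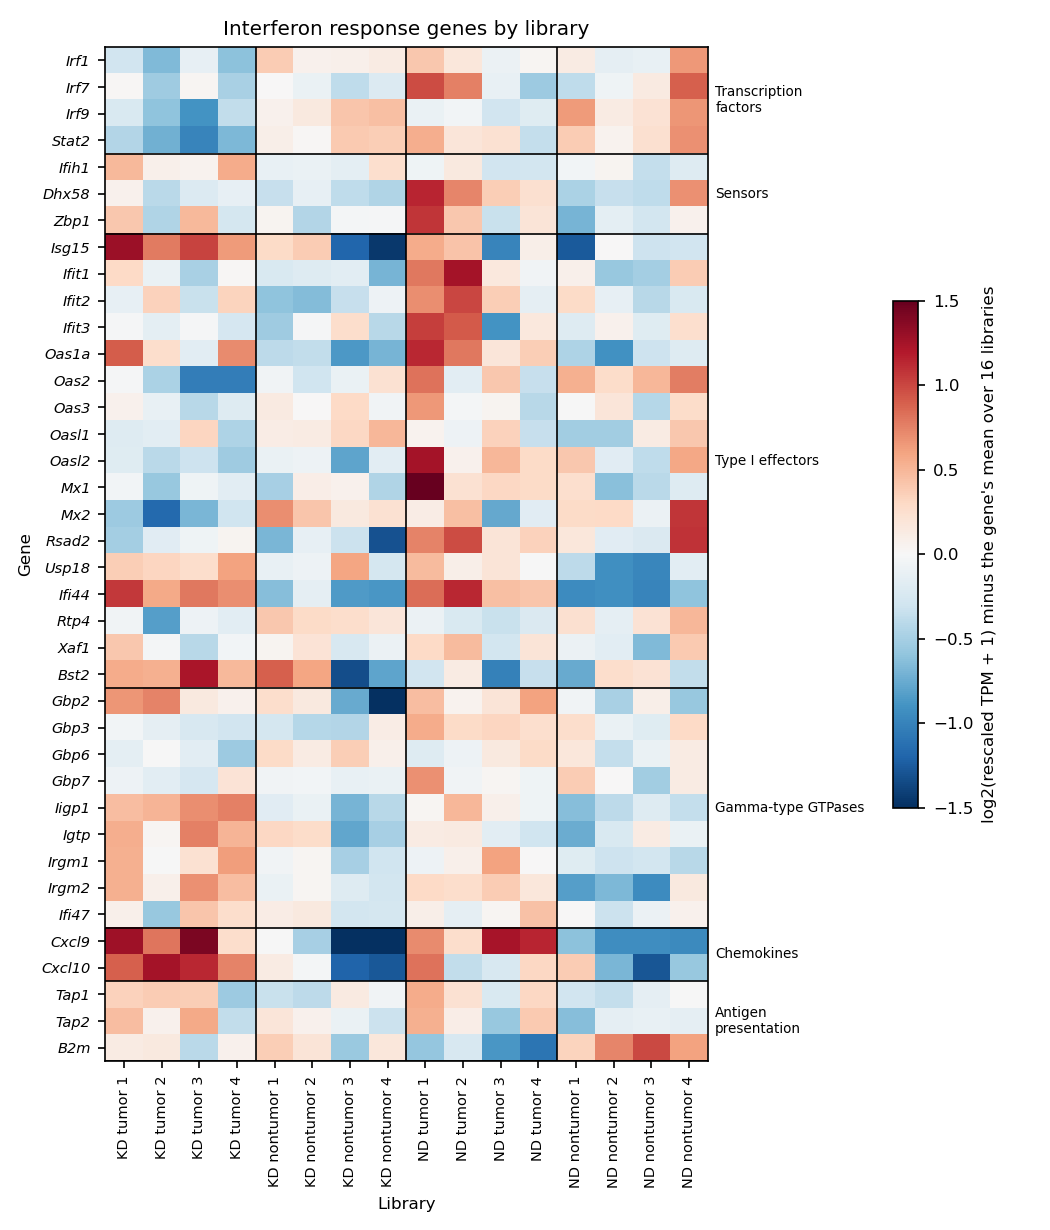
Level of each of the 38 genes (rows, by role) in each of the 16 libraries (columns), as log2(rescaled TPM + 1) minus the gene's mean over all libraries; colors beyond 1.5 in either direction are drawn at the end of the scale. Ifi44, Cxcl9 and Oas1a are red in most tumor libraries of both diets and blue in nontumor liver, while Stat2 and Irf9 are blue in KD tumor.

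**Figure D2:**
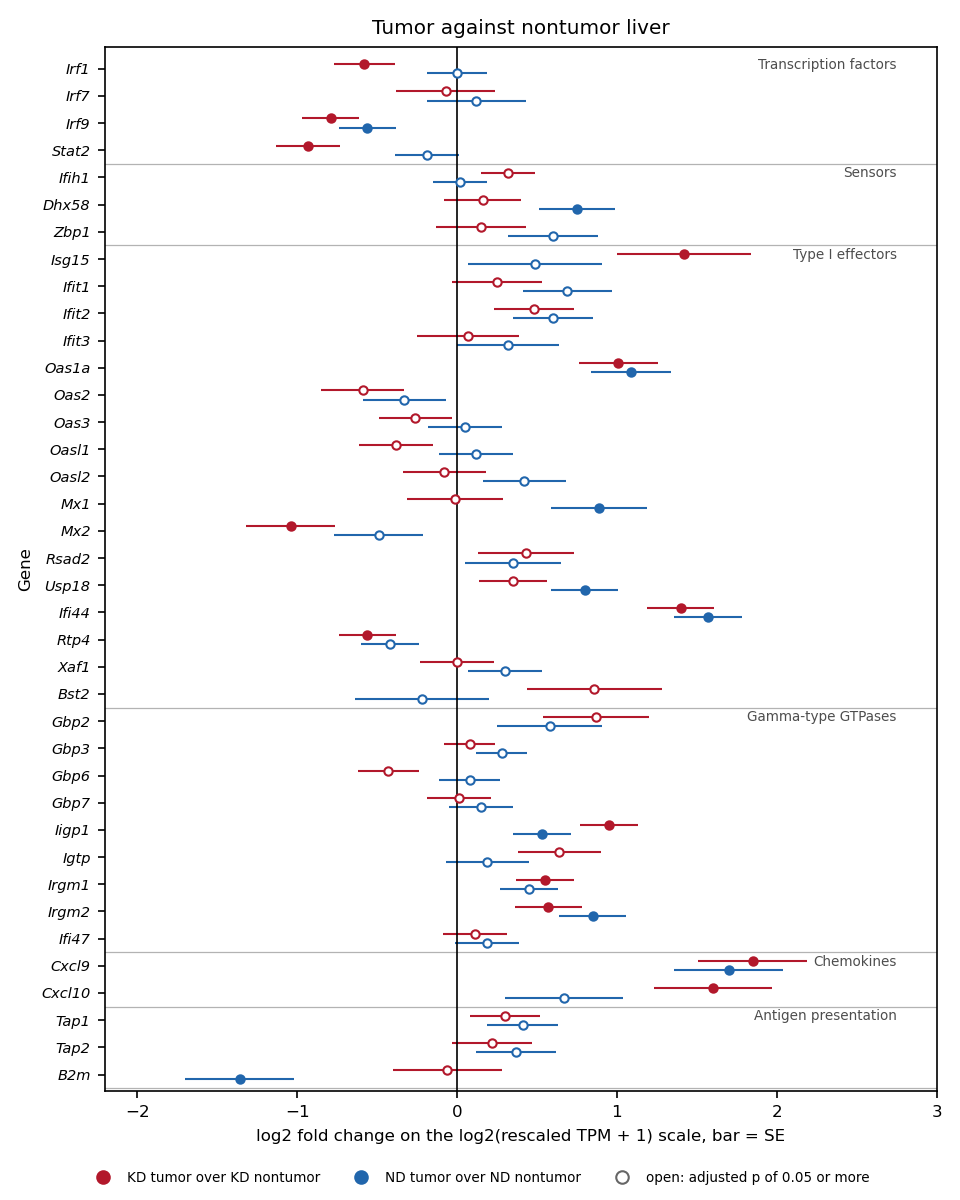
Log2 fold change of tumor over nontumor liver for each gene on the ketogenic diet (red) and the normal diet (blue), on the log2(rescaled TPM + 1) scale, with SE bars and filled points for adjusted p under 0.05. Most fold changes lie within 1 of 0, and the points farthest to the right are Cxcl9, Cxcl10, Ifi44 and Isg15.

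Of the 4 transcription factors, 3 were lower in KD tumor than in KD nontumor liver (Stat2, Irf9 and Irf1), 1 was lower in ND tumor than in ND nontumor liver (Irf9), and 0 were higher on either diet. The lower shares were 75% and 25%, against 16.2% and 14.2% of all genes. Stat2 encodes the subunit of the type I complex that carries its activation domain. It had 82.2, 67.3, 55.7 and 69.4 TPM in KD tumor, 119, 113, 147 and 144 in KD nontumor, 163, 127, 131 and 87.3 in ND tumor, and 146, 116, 132 and 179.9 in ND nontumor. Every KD tumor library lay below all 12 others. Stat2 was lower in KD tumor than in KD nontumor liver (log2 fold change -0.93 ± 0.20 SE, adjusted p = 0.00276) and lower than in ND tumor (-0.86 ± 0.20, adjusted p = 0.0125). On the normal diet the tumor and nontumor ranges overlapped (-0.19 ± 0.20, adjusted p = 0.531). Both Stat2 calls were kept when each of the 16 libraries was left out in turn.

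Irf9, the DNA-binding partner of STAT2, had 19.8, 15.1, 12.1 and 17.8 TPM in KD tumor and 24.5, 25.9, 31.5 and 32.2 in KD nontumor. In ND tumor its values were 21.7, 22.8, 19.0 and 20.5, against 36.8, 25.4, 27.2 and 37.5 in ND nontumor. On both diets all 4 tumors lay below all 4 nontumor samples. The log2 fold change was -0.79 ± 0.18 on the ketogenic diet (adjusted p = 0.0029) and -0.56 ± 0.18 on the normal diet (adjusted p = 0.0256). The normal-diet call was lost without ND tumor 3, ND nontumor 1 or ND nontumor 4 (adjusted p 0.0637 to 0.0769), and on the deposited scale the value turned to 0.06 ± 0.58 (adjusted p = 0.967).

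Irf1, a factor induced most strongly by interferon gamma, had 19.0, 14.4, 21.4 and 14.9 TPM in KD tumor, 30.6, 24.4, 24.7 and 25.5 in KD nontumor, 31.3, 26.4, 21.9 and 23.8 in ND tumor, and 25.4, 21.1, 21.6 and 37.2 in ND nontumor. It was lower in KD tumor than in KD nontumor liver (-0.58 ± 0.19, adjusted p = 0.028), with no overlap. That call was lost without KD tumor 2, KD tumor 4, KD nontumor 1 or KD nontumor 4 (adjusted p 0.0537 to 0.0865). Against ND tumor the KD tumor values did not overlap either, but the difference missed the threshold (-0.55 ± 0.19, adjusted p = 0.0592). Irf7, the factor that amplifies interferon alpha production, averaged 38.3 ± 8.19 TPM (SD, n = 4 here and in each group below) in KD tumor, 39.9 ± 4.55 in KD nontumor, 59.2 ± 27.7 in ND tumor and 52.5 ± 21.9 in ND nontumor. It passed the test in no comparison, and ND tumors 1 and 2, at 88.8 and 76.1 TPM, were far above ND tumors 3 and 4, at 41.4 and 30.4.

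The 3 sensors detect foreign or misplaced nucleic acid. Dhx58, which encodes the RIG-I-like receptor LGP2, had 16.2, 11.5, 13.3 and 14.1 TPM in KD tumor, 11.9, 14.1, 11.6 and 11 in KD nontumor, 35.2, 26.3, 20.2 and 18.4 in ND tumor, and 10.9, 11.9, 11.6 and 25.6 in ND nontumor. All ND tumors lay above all KD tumors, and ND nontumor 4 lay within the ND tumor range. Dhx58 was lower in KD tumor than in ND tumor (-0.79 ± 0.24, adjusted p = 0.0386) and higher in ND tumor than in ND nontumor liver (0.75 ± 0.24, adjusted p = 0.0299), and the KD tumor against KD nontumor value was 0.16 ± 0.24 (adjusted p = 0.641). The diet call was lost without ND tumor 1 or 2 or KD tumor 2, 3 or 4 (adjusted p 0.0721 to 0.119). The ND tumor call was lost without ND tumor 1 or 2 or ND nontumor 1, 2 or 3 (adjusted p 0.0655 to 0.103). Ifih1, which encodes the RNA sensor MDA5, and Zbp1, a sensor of Z-form nucleic acid, passed in no comparison. Their values over all 16 libraries ran from 3.61 to 7.64 TPM for Ifih1 and from 4.30 to 17.2 TPM for Zbp1.

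Among the 17 type I effectors, 3 were higher and 2 lower in KD tumor than in KD nontumor liver, and 4 were higher and 0 lower in ND tumor than in ND nontumor liver. On the ketogenic diet these shares, 17.6% and 11.8%, lay near or below the 16.3% and 16.2% of all genes, and on the normal diet 23.5% were higher, against 14.5% of all genes. Ifi44, an interferon-induced gene of uncertain biochemical function at chr3:151730922-151749960, gave the smallest p of all members on both diets. It had 6.11, 4.05, 4.88 and 4.51 TPM in KD tumor and 1.19, 2.11, 0.885 and 0.862 in KD nontumor. In ND tumor it had 5.08, 6.46, 3.67 and 3.55 TPM, against 0.764, 0.800, 0.716 and 1.25 in ND nontumor. Every tumor lay above every nontumor library of both diets. The log2 fold change was 1.40 ± 0.21 on the ketogenic diet (adjusted p = 0.000153) and 1.57 ± 0.21 on the normal diet (adjusted p = 4.38e-05). Both calls were kept on the deposited scale and with each library left out.

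Oas1a encodes a 2'-5'-oligoadenylate synthetase, an enzyme that makes the messenger activating RNase L, and lies with Oas2 and Oas3 in a cluster on chromosome 5. It had 19.7, 12.1, 8.87 and 16.9 TPM in KD tumor and 7.32, 7.50, 5.04 and 5.75 in KD nontumor, and 23, 18.0, 11.5 and 13.1 in ND tumor against 6.95, 4.85, 7.87 and 8.62 in ND nontumor. All 8 tumors lay above all 8 nontumor libraries. Oas1a was higher in tumor by 1.01 ± 0.25 on the ketogenic diet (adjusted p = 0.00589) and by 1.09 ± 0.25 on the normal diet (adjusted p = 0.00404). Mouse Oas1 copies are closely similar, so reads may be split among them.

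Oas2, a larger synthetase of the same cluster, had 19.8, 14.2, 9.29 and 9.32 TPM in KD tumor, 19.3, 16.1, 18.7 and 23.7 in KD nontumor, 36.2, 18.0, 27.0 and 15.6 in ND tumor, and 29.5, 24.5, 28.7 and 34.8 in ND nontumor. Oas2 was lower in KD tumor than in ND tumor (-0.82 ± 0.26, adjusted p = 0.0418), although KD tumor 1 lay within the ND tumor range. Oasl2, a synthetase-like protein with ubiquitin-like domains, was lower in KD tumor too (-0.88 ± 0.26, adjusted p = 0.0335), with 3.67, 2.98, 3.26 and 2.67 TPM in KD tumor and 11.6, 4.54, 6.49 and 5.44 in ND tumor and no overlap. Its nontumor values were 3.94, 4.01, 2.06 and 3.75 in KD and 6.02, 3.71, 3.05 and 6.89 in ND. The Oas2 call was lost without ND tumor 1 or 3, ND nontumor 1 or 3, or KD tumor 2, 3 or 4 (adjusted p 0.0509 to 0.129), and the Oasl2 call without ND tumor 1 or 3 or KD tumor 2, 3 or 4 (adjusted p 0.0615 to 0.103).

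Isg15, a ubiquitin-like protein that is attached to other proteins, had 121, 84.9, 100.2 and 77.0 TPM in KD tumor, 60.0, 64.4, 20.9 and 17.4 in KD nontumor, 72.7, 66.6, 24.3 and 52.3 in ND tumor, and 20, 49.2, 39.2 and 40.1 in ND nontumor. All KD tumors lay above all other libraries. Isg15 was higher in KD tumor than in KD nontumor liver (1.42 ± 0.42, adjusted p = 0.0166). Set against ND tumor the value was 0.91 ± 0.42 (adjusted p = 0.146), and in ND tumor against ND nontumor liver it was 0.49 ± 0.42 (adjusted p = 0.418). Its transcript is short (756 bases), and the 882 genes under 1000 bases had median deviations of 0.25 to 0.47 log2 units in KD tumor, against -0.54 to 0.13 in KD nontumor. They were -0.55 to 0.06 in ND tumor, against -0.48 to -0.03 in ND nontumor. With each library adjusted for length, the KD tumor against KD nontumor value was 0.93 ± 0.33 (adjusted p = 0.0409). The call was lost without KD nontumor 3 or 4 (adjusted p = 0.0599 without KD nontumor 3 and 0.067 without KD nontumor 4).

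Bst2, which encodes tetherin, a protein that holds budding virus on the cell surface, is also short (903 bases). It had 374, 369, 594 and 358 TPM in KD tumor, 475, 383, 100.3 and 147 in KD nontumor, 208, 278, 126 and 199.5 in ND tumor, and 150.3, 306, 297 and 196 in ND nontumor. Although all KD tumors lay above all ND tumors, the difference missed the threshold (1.08 ± 0.42, adjusted p = 0.0894). Bst2 had the highest mean of the type I effectors.

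Mx1 and Mx2 encode dynamin-like GTPases that block virus replication. Mx1 had 4.04, 2.51, 3.96 and 3.65 TPM in KD tumor, 2.66, 4.57, 4.42 and 2.79 in KD nontumor, 16.7, 5.10, 5.46 and 5.34 in ND tumor, and 5.19, 2.36, 2.93 and 3.53 in ND nontumor. It was higher in ND tumor than in ND nontumor liver (0.89 ± 0.30, adjusted p = 0.0363), and ND tumor 1 was far above the other 3 tumors of its group. That call was lost without ND tumor 1 (0.52 on the log2 scale) and without ND nontumor 2, 3 or 4, with adjusted p 0.0578 to 0.108 over these fits. Mx2 had 4.92, 2.82, 4.37 and 6.01 TPM in KD tumor and 12.9, 10.5, 8.50 and 9.08 in KD nontumor, and was lower in KD tumor with no overlap (-1.04 ± 0.28, adjusted p = 0.00851). In ND tumor Mx2 had 8.32, 10.8, 4.07 and 6.63 TPM, against 9.53, 9.56, 7.11 and 17.1 in ND nontumor (-0.49 ± 0.28, adjusted p = 0.204).

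Usp18, the protease that removes ISG15 and damps type I signaling at the receptor, had 11.9, 8.86, 9.69 and 8.24 TPM in ND tumor and 6.11, 3.92, 3.75 and 7.36 in ND nontumor. It was higher in ND tumor with no overlap (0.80 ± 0.21, adjusted p = 0.0106). In KD tumor it had 11.1, 10.6, 10.1 and 13.2 TPM, against 7.62, 7.82, 13.0 and 6.78 in KD nontumor (0.35 ± 0.21, adjusted p = 0.219). Rtp4, a receptor transport protein induced by type I interferon, had 21.7, 12.3, 21.3 and 20 TPM in KD tumor and 30.2, 27.7, 27.3 and 25.7 in KD nontumor, and was lower in KD tumor (-0.56 ± 0.18, adjusted p = 0.0234). That call was lost without KD tumor 2 or KD nontumor 1 (adjusted p = 0.0864 without the first and 0.0527 without the second).

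The Ifit genes, which encode proteins that bind foreign RNA, passed in no comparison. Ifit1 had 21.0, 15.7, 11.7 and 17.1 TPM in KD tumor, 14.2, 14.6, 15 and 10.1 in KD nontumor, 29.8, 41.2, 19.0 and 16.3 in ND tumor, and 17.8, 11.1, 11.6 and 22.3 in ND nontumor. Its values in ND tumor against ND nontumor liver were 0.69 ± 0.28 (adjusted p = 0.0757), and those of Ifit2 and Ifit3 were 0.60 ± 0.25 (adjusted p = 0.0796) and 0.32 ± 0.32 (adjusted p = 0.484). As with Irf7, ND tumors 1 and 2 were the highest of their group for all 3 Ifit genes. Rsad2 (viperin), Xaf1, Oas3 and Oasl1 passed in no comparison either, with levels over all libraries of 0.577 to 7.27, 4.68 to 11.4, 0.325 to 1.79 and 3.59 to 8.32 TPM.

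**Figure D3:**
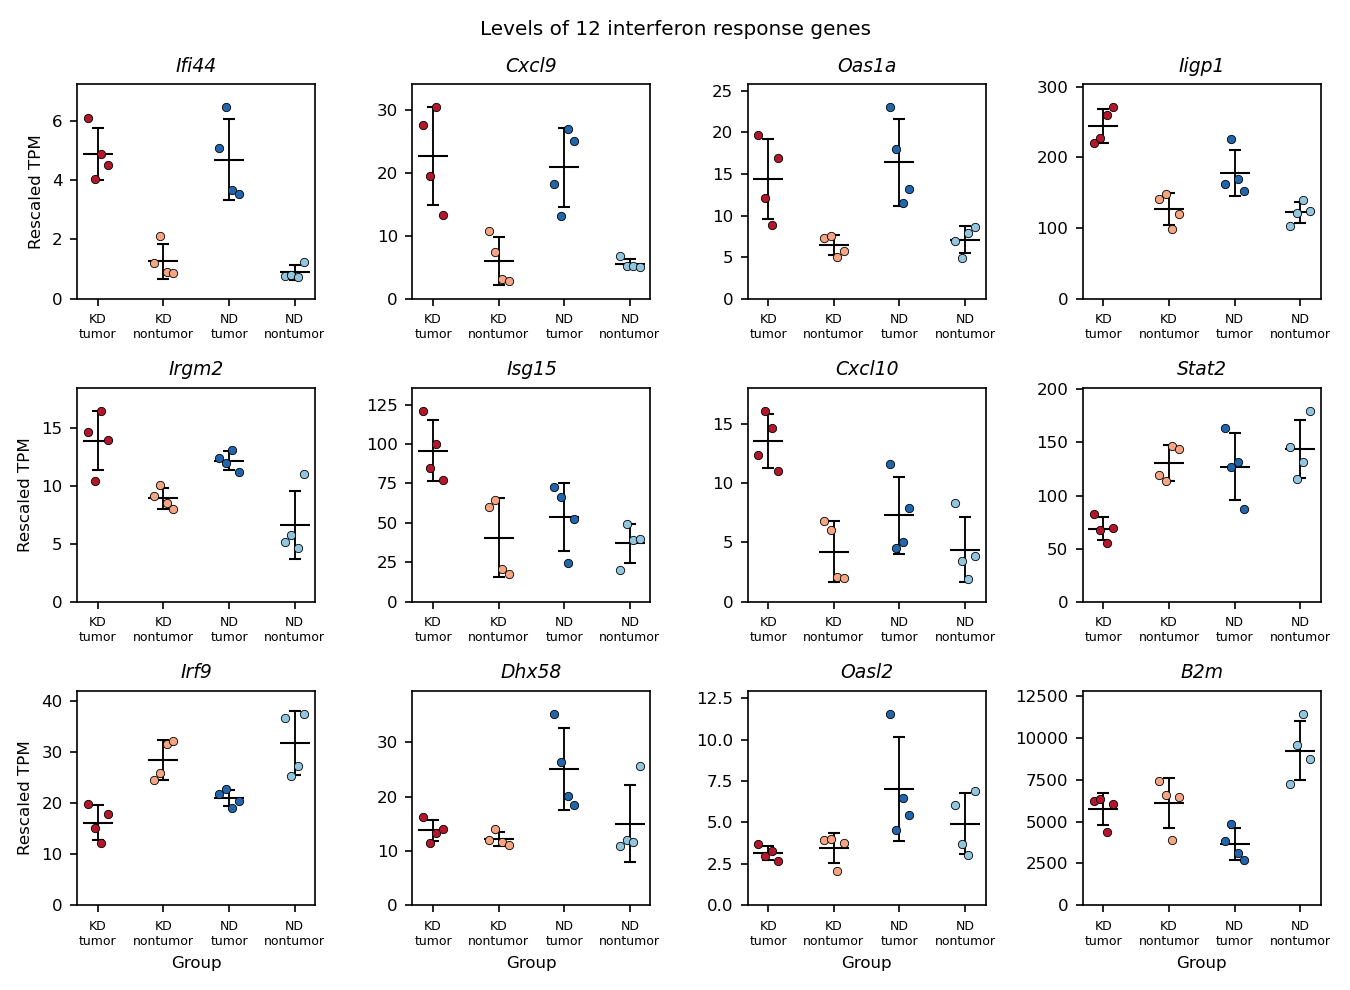
Rescaled TPM of 12 members in the 4 groups, with 1 point per library and the mean and SD (n = 4) in black. Ifi44, Cxcl9 and Oas1a are higher in tumor on both diets, Stat2 is lowest in KD tumor, and B2m is lowest in ND tumor.

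The gamma-type GTPases were higher in tumor or did not pass, and none passed as lower in tumor on either diet. On the ketogenic diet 8 of the 9 had a fold change above 0 and 1, Gbp6, below it. Gbp6 missed the threshold there (-0.43 ± 0.19, adjusted p = 0.0967). Its KD tumor values (0.431 to 1.094 TPM) all lay below its KD nontumor values (1.214 to 1.708 TPM). Of the 9, 3 were higher in KD tumor than in KD nontumor liver and 2 were higher in ND tumor than in ND nontumor liver, which is 33.3% and 22.2%, against 16.3% and 14.5% of all genes. Some of these proteins coat and disrupt the vacuoles of intracellular microbes. Iigp1 (Irga6) was the most abundant of them, with 221, 228, 259 and 271 TPM in KD tumor and 141, 149, 98.0 and 119.9 in KD nontumor. In ND tumor it had 163, 226, 169 and 152 TPM, against 102, 121, 140.1 and 124 in ND nontumor. All tumors lay above all nontumor libraries of their diet, and the log2 fold change was 0.95 ± 0.18 on the ketogenic diet (adjusted p = 0.000998) and 0.53 ± 0.18 on the normal diet (adjusted p = 0.0382). The normal-diet call was lost without ND tumor 1, 2 or 3 or ND nontumor 1, 2 or 4 (adjusted p 0.054 to 0.12).

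Irgm2, a regulator of the other immunity-related GTPases, had 14.7, 10.4, 16.5 and 14 TPM in KD tumor and 9.12, 10.1, 8.51 and 7.99 in KD nontumor. Its values were 12.4, 12, 13.1 and 11.2 in ND tumor and 5.12, 5.80, 4.64 and 11 in ND nontumor. It was higher in tumor on the ketogenic diet (0.57 ± 0.21, adjusted p = 0.0423) and on the normal diet (0.85 ± 0.21, adjusted p = 0.00531), with no overlap on either. The ketogenic-diet call was lost in 8 of 16 leave-one-out fits (adjusted p 0.0513 to 0.118), those without KD tumor 1, 3 or 4, KD nontumor 1, 3 or 4, ND tumor 2 or ND nontumor 2. Irgm2 (chr11:58199618-58222782, plus strand) overlaps Igtp (chr11:58199556-58207591, plus strand), so reads of the 2 genes may be split between them. Irgm1, another such regulator, was higher in KD tumor (0.55 ± 0.18, adjusted p = 0.0318), with 21.5, 14.4, 17.2 and 22.8 TPM in KD tumor and 14, 14.9, 9.96 and 11.6 in KD nontumor. That call was lost without KD tumor 1 or 4 or KD nontumor 3 or 4 (adjusted p 0.0792 to 0.103).

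Gbp3, a guanylate-binding protein, was the only gamma-type member to pass between the diets. It had 8.83, 8.25, 7.54 and 7.32 TPM in KD tumor, 7.46, 6.54, 6.44 and 9.96 in KD nontumor, 13.9, 11.3, 11.7 and 11 in ND tumor, and 11.2, 8.47, 7.94 and 11.4 in ND nontumor. It was lower in KD tumor than in ND tumor with no overlap (-0.53 ± 0.16, adjusted p = 0.0373). That call was lost without ND tumor 1, 2 or 3 or KD tumor 2, 3 or 4 (adjusted p 0.0513 to 0.0991). Gbp2, Gbp6, Gbp7, Igtp and Ifi47 passed in no comparison, and Gbp2 had 0 reads in KD nontumor 4 and at most 3.85 TPM in any library.

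The chemokines Cxcl9 and Cxcl10 attract T cells through CXCR3 and lie side by side on chromosome 5. Cxcl9, which depends mainly on interferon gamma, had 27.5, 19.5, 30.4 and 13.2 TPM in KD tumor and 10.8, 7.33, 3.07 and 2.86 in KD nontumor. In ND tumor it had 18.2, 13.2, 26.9 and 25 TPM, against 6.70, 5.17, 5.20 and 5.07 in ND nontumor. Tumors and nontumor liver did not overlap on either diet, and the log2 fold change was 1.85 ± 0.34 on the ketogenic diet (adjusted p = 0.00071) and 1.70 ± 0.34 on the normal diet (adjusted p = 0.00136). Cxcl10, which answers both kinds of interferon, had 12.3, 16.1, 14.7 and 11 TPM in KD tumor, 6.82, 6.01, 2.11 and 1.98 in KD nontumor, 11.6, 4.55, 5.08 and 7.88 in ND tumor, and 8.31, 3.46, 1.95 and 3.82 in ND nontumor. It was higher in KD tumor than in KD nontumor liver (1.60 ± 0.37, adjusted p = 0.00388) and was 0.67 ± 0.37 on the normal diet (adjusted p = 0.194), and the difference between these 2 values did not pass (0.93 ± 0.53, adjusted p = 0.359).

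B2m, the light chain of MHC class I molecules, had the highest level of all members. It had 6256, 6347, 4359.9 and 6027 TPM in KD tumor, 7449, 6589, 3914 and 6487 in KD nontumor, 3848, 4876, 3139 and 2687 in ND tumor, and 7234, 9565, 11451 and 8772 in ND nontumor. All ND tumors lay below all ND nontumor libraries, and B2m was lower in ND tumor (-1.36 ± 0.34, adjusted p = 0.00672), against -0.06 ± 0.34 on the ketogenic diet (adjusted p = 0.90). With no filter on low values the ND call was lost (adjusted p = 0.15). The B2m transcript is short (860 bases), and with the length adjustment the ND value was -1.48 ± 0.28 (adjusted p = 0.000781). Tap1 and Tap2, the subunits of the peptide transporter, passed in no comparison, with 12.4 to 27.7 and 9.31 to 22.7 TPM over all libraries.

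Between the diets, tumors differed in 5 members, all lower on the ketogenic diet, and 0 members passed in nontumor liver. In KD tumor against ND tumor, 0 of 38 members were higher and 5 lower (13.2%), while 7.21% of all genes were higher and 8.49% lower. The 5 were Stat2, Oasl2, Gbp3, Dhx58 and Oas2. Unadjusted p-values under 0.05 were found for 5 members higher and 10 lower in KD tumor, and limma-voom on recovered reads called 1 higher (Cxcl10) and 6 lower. Of all 13432 tested genes, limma-voom called 1207 higher and 1291 lower. Unadjusted p-values were not counted over all genes. Stat2 alone among the 5 kept its call with each library left out, and on the deposited scale 0 of the 5 passed. On that scale 39 of all 13432 tested genes were higher and 74 lower. In KD nontumor against ND nontumor liver, 0 of 38 members were higher and 0 lower (limma), and 0.00744% of all genes were higher and 0.0372% lower. There, unadjusted p-values were under 0.05 for Usp18 and Irgm2 (higher) and Oas2 and Rsad2 (lower), the lowest adjusted p was 0.334 (Usp18), and limma-voom called 0 members. Among all tested genes limma-voom called 2 higher and 4 lower in nontumor liver.

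**Figure D4:**
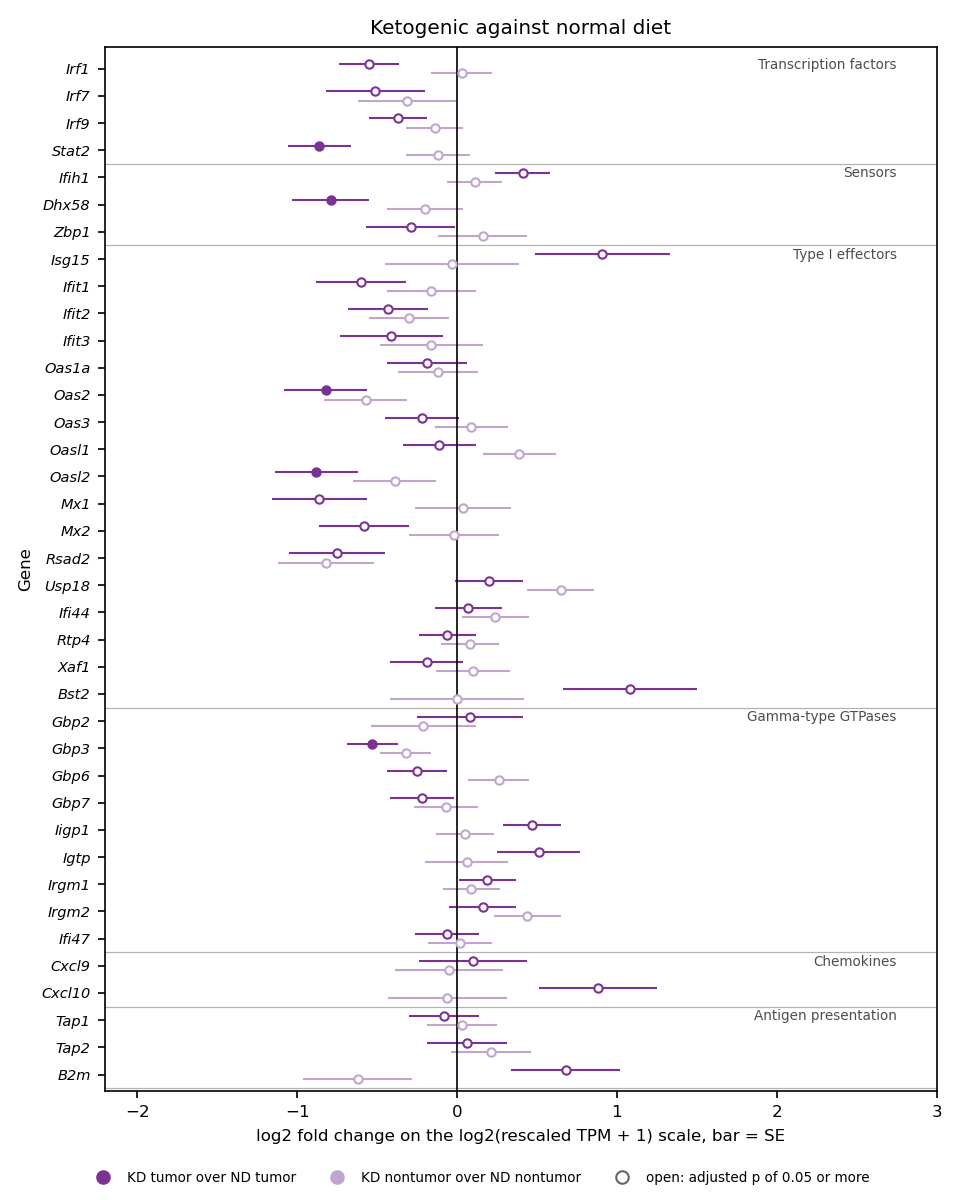
Log2 fold change of the ketogenic over the normal diet for each gene, in tumor (dark purple) and nontumor liver (light purple), on the log2(rescaled TPM + 1) scale, with SE bars and filled points for adjusted p under 0.05. The 5 filled points, all in tumor and left of 0, are Stat2, Dhx58, Oas2, Oasl2 and Gbp3.

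The test of whether the tumor effect differed between the diets called 0 of 38 members in either direction (limma), with 0.208% of all genes called higher and 0.402% lower. Unadjusted p-values were under 0.05 for B2m (higher) and for Stat2 and Irf1 (lower), and limma-voom called 0 members. Among all tested genes limma-voom called 28 higher and 53 lower. B2m had the lowest adjusted p, with a difference of 1.30 ± 0.48 (95% interval 0.28 to 2.32, adjusted p = 0.181). For Stat2 the difference was -0.74 ± 0.29 (adjusted p = 0.198), so the tumor effects of Stat2 on the 2 diets were not shown to differ.

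The 9 type I genes and the 7 gamma-type genes are given beside each other by medians and counts, which moved with single libraries. In KD tumor against KD nontumor liver, the median log2 fold change was 0.07 for the type I genes, with 2 higher and 0 lower, and 0.55 for the gamma-type genes, with 3 higher and 0 lower. The higher shares were 22.2% and 42.9%, against 16.3% of all genes, and 16.2% of all genes were lower. With 1 library left out, the type I median was -0.02 (without KD nontumor 1) to 0.21 (without KD nontumor 3), and it was -0.01 without KD nontumor 4. The gamma-type median then ranged over 0.45 to 0.66, with 1 gene higher without KD tumor 1 or KD nontumor 3 or 4.

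In ND tumor against ND nontumor liver the median was 0.42 for type I (1 higher) and 0.45 for gamma type (2 higher). The higher shares were 11.1% and 28.6%, against 14.5% of all genes. The medians were 0.18 and 0.52 without ND tumor 1, and 0.64 and 0.30 without ND tumor 3, so their order turned with the library left out. The type I median was also lower, at 0.26 and 0.27, without ND nontumor 1 and without ND nontumor 3. The type I count was 3 with sample weights or without ND tumor 4, where Ifit1 and Ifit2 also passed, and 2 without ND tumor 3 or ND nontumor 4.

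In KD tumor against ND tumor the median was -0.41 for type I, with 8 of 9 genes below 0 and 2 lower (Oas2 and Oasl2), and 0.08 for gamma type, with 3 of 7 below 0 and 1 lower (Gbp3). The lower shares were 22.2% and 14.3%, against 8.49% of all genes. Without ND tumor 1 the type I median was -0.17 and without ND tumor 2 it was -0.25. The type I lower count was 0 without ND tumor 1, without KD tumor 2, 3 or 4 and with no filter, and 1 without ND tumor 3 or ND nontumor 1 or 3. The gamma-type median lay between -0.09 (without ND tumor 2) and 0.12 (without ND tumor 4), below 0 also without KD tumor 1, 2 or 3. In KD nontumor against ND nontumor liver the medians were -0.16 and -0.05, and ranged over -0.26 to -0.02 and -0.09 to 0.15 with 1 library left out. The difference between the gene lists was not tested, and the 4 comparisons share groups. On the deposited scale the type I median turned to -0.25 in KD tumor against KD nontumor liver and to 0.63 in KD nontumor against ND nontumor liver, and the gamma-type median to 0.60 in the last of these. In these comparisons, in the same order, the medians of all genes on that scale were -0.26 and 0.69.

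By library, the mean log2 level of the 9 type I genes was 3.14 to 3.52 in KD tumor and 2.99 to 3.17 in KD nontumor, and for the normal diet 3.25 to 4.07 in tumor and 3.08 to 3.51 in nontumor liver. The ND tumors were spread out, with 4.07 and 3.76 in ND tumors 1 and 2 and 3.31 and 3.25 in ND tumors 3 and 4. The mean of the 7 gamma-type genes was 2.90 to 3.18 in KD tumor and 2.27 to 2.80 in KD nontumor, and for the normal diet 2.90 to 3.20 in tumor and 2.38 to 2.67 in nontumor liver, so tumor and nontumor libraries did not overlap within a diet. For the 4 transcription factors it was 4.76 to 5.15 in KD tumor, below 5.42 to 5.57 in KD nontumor, and 5.12 to 5.84 in ND tumor, against 5.38 to 6.11 in ND nontumor.

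**Figure D5:**
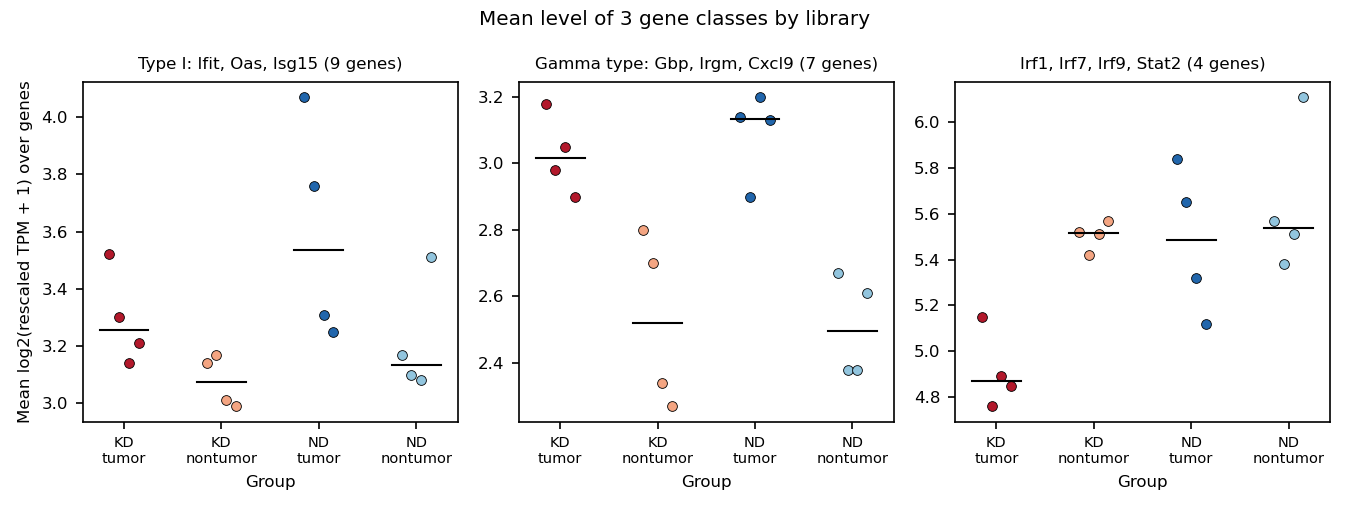
Mean log2(rescaled TPM + 1) of the type I genes, the gamma-type genes and the 4 transcription factors in each library (points), with the group median (bar); axes do not start at 0. Gamma-type means are higher in tumor on both diets, type I means spread most in ND tumor, and the transcription factors are lowest in KD tumor.

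The receptor chains Ifngr1, Ifngr2, Ifnlr1 and Il10rb were higher in tumor on both diets, and the 2 ligand genes in the table were low. Of 16 interferon genes searched, Ifng and Ifnk were in the table, with at most 0.838 and 1.54 TPM in any library, so neither was tested. Of 11 receptor, kinase and STAT genes, 6 were higher in KD tumor than in KD nontumor liver and 4 in ND tumor than in ND nontumor liver, and 0 were lower. These shares were 54.5% and 36.4%, against 16.3% and 14.5% of all genes, and 5 of the 11 had a fold change below 0 on the ketogenic diet. Ifngr1, the ligand-binding chain for interferon gamma, had 69.3, 63.5, 39.1 and 39.5 TPM in KD tumor, 19.6, 25.5, 15 and 14.7 in KD nontumor, 48.1, 52.1, 57.7 and 69.5 in ND tumor, and 14.1, 16.1, 16.6 and 26.8 in ND nontumor. It was higher in tumor by 1.44 ± 0.24 on the ketogenic diet (adjusted p = 0.000392) and by 1.60 ± 0.24 on the normal diet (adjusted p = 0.00014). Ifnlr1, the chain specific for interferon lambda, was higher by 1.45 ± 0.28 (adjusted p = 0.00116) and 2.41 ± 0.28 (adjusted p = 1.29e-05) on these diets. Between the diets, the kinase Tyk2 was lower in KD tumor than in ND tumor (-0.58 ± 0.17, adjusted p = 0.0302).

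Of 12 inhibitors of the pathway, 5 were lower and 0 higher in KD tumor than in KD nontumor liver, and 1 was lower and 2 higher in ND tumor than in ND nontumor liver. The lower shares were 41.7% and 8.33%, against 16.2% and 14.2% of all genes. Irf2, a factor that competes with IRF1 for the same sites, was lower in tumor on both diets (-0.87 ± 0.24, adjusted p = 0.0118 on the ketogenic diet, and -1.12 ± 0.24, adjusted p = 0.00249 on the normal diet). Of 13 further nucleic acid sensing genes tested, 1 was higher and 1 lower in KD tumor against KD nontumor liver, and 2 were higher and 4 lower in ND tumor against ND nontumor liver. Of these shares, 7.69% in each direction on the ketogenic diet lay below the 16.3% and 16.2% of all genes, 15.4% higher on the normal diet was near the 14.5% of all genes, and 30.8% lower stood against 14.2%. Ikbke, a kinase that activates interferon regulatory factors, was lower in KD tumor than in ND tumor (-1.12 ± 0.19, adjusted p = 0.00215) and higher in ND tumor than in ND nontumor liver (1.15 ± 0.19, adjusted p = 0.000273).

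The MHC class I list held 18 genes, of which 1 was higher and 0 lower in KD tumor against KD nontumor liver, and 4 were higher and 1 lower in ND tumor against ND nontumor liver. The higher shares were 5.56% and 22.2%, against 16.3% and 14.5% of all genes. In KD tumor against ND tumor 0 were higher and 3 lower (16.7%, against 8.49% of all genes), while 14 of the 18 had a fold change above 0 and the list's median was 0.23. The summed level was 3767 to 5068 TPM in KD tumor, against 3107 to 4235 in ND tumor. H2-Q6, a nonclassical class I gene, had 162, 168, 142 and 111 TPM in KD tumor, 103, 115, 143 and 104 in KD nontumor, 413, 286, 386 and 284 in ND tumor, and 139, 84.6, 93.1 and 131 in ND nontumor. It was lower in KD tumor than in ND tumor (-1.22 ± 0.21, adjusted p = 0.00267), and higher in ND tumor than in ND nontumor liver (1.61 ± 0.21, adjusted p = 4.04e-05). Nlrc5, the transactivator of class I genes, was lower in KD tumor than in ND tumor (-0.64 ± 0.21, adjusted p = 0.0478) and higher in ND tumor than in ND nontumor liver (1.04 ± 0.21, adjusted p = 0.00144). The H2-Q genes are similar copies, so reads may be split among them. B2m, the partner chain, was lower in ND tumor as given above.

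Among 34 other interferon-stimulated genes, 7 were higher and 2 lower in KD tumor than in KD nontumor liver, and 5 were higher and 1 lower in ND tumor than in ND nontumor liver. The higher shares, 20.6% and 14.7%, were near the 16.3% and 14.5% of all genes, and the lower shares, 5.88% and 2.94%, were below the 16.2% and 14.2%. Ly6e, a membrane protein that restricts entry of some viruses, was higher in tumor on both diets (1.22 ± 0.28, adjusted p = 0.00346 on the ketogenic diet, and 1.28 ± 0.28, adjusted p = 0.00258 on the normal diet). Slfn5 was lower in KD tumor than in ND tumor (-1.27 ± 0.21, adjusted p = 0.00218), with 8.38, 8.29, 4.47 and 4.25 TPM in KD tumor and 23.7, 15.7, 12.9 and 13.7 in ND tumor. Of 22 other gamma-type genes tested, 6 were higher and 2 lower in KD tumor against KD nontumor liver, and 7 were higher and 3 lower in ND tumor against ND nontumor liver. The higher shares were 27.3% and 31.8%, against 16.3% and 14.5% of all genes. Ccl5, a chemokine for T cells and monocytes, was higher in tumor (1.70 ± 0.34, adjusted p = 0.00137 on the ketogenic diet, and 1.94 ± 0.34, adjusted p = 0.00048 on the normal diet). Gbp11 was lower in tumor (-2.27 ± 0.37, adjusted p = 0.000331, and -1.73 ± 0.37, adjusted p = 0.00254, in the same order).

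Markers of some immune cells differed between tumor and nontumor liver. On the ketogenic diet 16.3% of all tested genes were higher in tumor and 16.2% lower. On the normal diet these shares were 14.5% and 14.2%. The summed level of the T cell list, 10 genes, was 8.91 to 39.8 TPM in KD tumor and 13.4 to 27.9 in KD nontumor, and for the normal diet 23.9 to 97.7 in tumor and 13.1 to 25.6 in nontumor liver. Of 9 T cell markers tested, 0 were higher in KD tumor than in KD nontumor liver. In ND tumor 5 were higher than in ND nontumor liver (55.6%). Kupffer cell markers were lower in tumor, 6 of 11 on the ketogenic diet (54.5%, with 1 higher) and 7 of 11 on the normal diet (63.6%). Their sums were 156 to 324 TPM in KD tumor and 219 to 392 in KD nontumor. For the normal diet they were 177 to 291 in tumor and 357 to 530.5 in nontumor liver. Of 12 monocyte and macrophage markers, 6 were higher in KD tumor than in KD nontumor liver (50%). In ND tumor 5 were higher (41.7%) and 1 lower (8.33%) than in ND nontumor liver. Spp1, which is also a bile duct marker, had 749 to 2548 TPM in KD tumor and 32.5 to 247 in KD nontumor, and for the normal diet 509 to 1919 in tumor and 103 to 174 in nontumor liver. The other 11 markers summed to 109 to 192 TPM in KD tumor and 66.3 to 104 in KD nontumor, and for the normal diet to 127 to 315 in tumor and 106 to 131 in nontumor liver. Of 6 B cell and 5 neutrophil markers tested, 0 passed in tumor against nontumor liver on either diet. Of 7 dendritic cell markers, 0 were higher and 1 lower (14.3%) on the ketogenic diet, and 1 was higher and 1 lower (14.3% each) on the normal diet. Of 5 NK cell markers 1 was higher on each diet (20%). Of 5 plasmacytoid cell markers 1 was higher on the ketogenic diet (20%) and 2 on the normal diet (40%). Log2 fold changes in the plasmacytoid list ran from 0.19 to 6.7 (median 0.62) on the ketogenic diet. On the normal diet they ran from -0.25 to 6.3 (median 0.18), so the markers of this list moved unequally. No T cell, Kupffer cell or macrophage marker in the table was at 0 in all libraries of a group. The part of these cells in the levels of the interferon genes was not tested.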

How the data were processed

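The deposited table holds TPM values of 20601 genes in 16 columns. Per the submitters' processing notes, FastQC, HISAT2, SAMtools and featureCounts were used with build mm10. Versions, the annotation and the step to TPM are not given in the sources used here. Nontumor columns have the letter P and nontumor titles the letter N, so columns were matched by diet and number.

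Each library's TPM was divided by its median-of-ratios factor, computed on the 12119 genes detected in every library. The factor of ND nontumor 4 was 0.126, and those of the others were 0.922 to 1.498. Genes with deposited TPM of at least 1 in at least 4 libraries were tested (13432) with limma 3.58.1 (R 4.3.3), with a variance trend, on log2(x + 1) with a pseudocount of 1. All 16 libraries entered 1 fit of 4 group means. P-values were Benjamini-Hochberg adjusted over all tested genes.

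Because a gene's TPM values are multiples of the value of 1 read, whole reads could be sought. The smallest whole-number solution was taken, and 1 was found within 0.001 reads for 20601 genes. A gene above 0 in only 1 library is always solved this way, at 1 read, so the number solved does not measure accuracy. The recovered reads gave the depth and an alternative limma-voom fit. Of 14357 implied lengths, 98.02% equalled GENCODE M21 exon lengths within 0.1%. Only genes above 0 in most libraries entered that check. No 2 libraries of a group were copies. Gene positions are from GENCODE M21 (GRCm38).

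On simulated data for ND tumor against ND nontumor, 95% of 200 genes changed 4-fold were recovered (13226 genes, 6 unchanged genes called), and 9.5% of 199 genes changed 2-fold (13249 genes, 5 unchanged called). In this simulation few genes changed and the spread was assumed, and most 2-fold changes were missed. In the real comparison 1945 genes were called higher and 1910 lower. Smaller changes were called there, such as Irf9 (log2 fold change -0.56) and Iigp1 (0.53). The simulated rates therefore do not carry over to that comparison.

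Members, pathway lists, markers and tests were chosen with earlier results of these data known. Values in every library are given for members that passed in at least 1 comparison and for the most abundant member of each role group. Other members are given by range or by name, and of each pathway list up to 4 genes per comparison by smallest p. Library values of Ifit1 and means of Irf7 were added after they were seen. Alternatives were deposited TPM, a pseudocount of 0.1, no filter, only the groups compared, sample weights, a replicate block, limma-voom and each library left out. Fits with a library left out, or with only the groups compared, kept the rescaling factors and the tested genes of all 16 libraries. A length adjustment was chosen after seeing the data. Python 3.11.15, pandas 2.3.3 and NumPy 2.4.6 were also used. The values of 1 pathway gene are not reported here, although it stays in the counts of its list.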

Additional observations from a re-analysis of the deposited data

Results flagged for a closer look

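Of 152 sets of 4 libraries (38 genes in 4 groups), 14 had 1 library far from the other 3, and chance alone flags about 1 in 20 such sets. Their causes were not tested. In KD tumor, Bst2 was highest in library 3 (593.89 TPM), Tap1 lowest in library 4 (12.44 TPM) and B2m lowest in library 3 (4359.89 TPM). In KD nontumor, Irf1 was highest in library 1 (30.59 TPM), Usp18 highest in library 3 (13.04 TPM) and Oasl2 lowest there (2.06 TPM). In KD nontumor 4, Ifit1 was lowest of its group (10.05 TPM) and Ifih1 highest (5.99 TPM). In ND tumor, library 1 was highest for Mx1 (16.68 TPM) and Gbp7 (8.95 TPM). In ND nontumor, library 1 was highest for Cxcl9 (6.70 TPM) and lowest for Tap2 (9.31 TPM). ND nontumor 4 was highest of its group for Ifi44 (1.25 TPM) and Dhx58 (25.55 TPM), and it is also the library whose listed genes made up 7.38% of the TPM total.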

How the results depend on the processing

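Of 28 calls of single members, 28 were kept with a pseudocount of 0.1, 27 with limma-voom, 27 with the length adjustment, 26 with sample weights, 22 with no filter, 22 with only the groups compared and 4 on the deposited scale. The 4 were Ifi44 on both diets and Cxcl9 and Oas1a on the normal diet. The value of Irf9 on the normal diet turned to 0.06 on that scale. The cause of these shifts was not tested.

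For KD tumor against KD nontumor liver, the 8 higher and 5 lower became 1 and 0 on the deposited scale. Of all 13432 tested genes, 2187 higher and 2174 lower became 387 and 724. Leaving out 1 library gave 5 to 10 higher (5 without KD nontumor 3 or 4) and 3 to 6 lower (3 without KD tumor 2 or KD nontumor 1). For ND tumor against ND nontumor liver, the 8 higher and 2 lower became 3 and 0 on the deposited scale. Of all tested genes, 1945 higher and 1910 lower became 1094 and 324. The higher count was 5 with only the groups compared, and the lower count was 1 with no filter and 1 with sample weights. Over all tested genes, 1744 were higher with only the groups compared. With no filter 1851 of 20601 were lower, and with sample weights 2194 of 13432. Leaving out 1 library gave 5 to 10 higher (5 without ND tumor 1 or ND nontumor 2) and 1 to 3 lower (1 without ND tumor 3, ND nontumor 1 or ND nontumor 4). For KD tumor against ND tumor, the 0 higher became 1 with only the groups compared (Bst2, adjusted p = 0.0267) and 1 with limma-voom (Cxcl10, adjusted p = 0.0441). Of all 13432 tested genes, 1122 and 1207 were higher in these fits, in the same order, against 969 in the main fit. The 5 lower became 0 on the deposited scale and 2 with no filter. Of all tested genes, 1140 lower became 74 on the deposited scale and 976 (of 20601) with no filter. Leaving out 1 library gave 0 to 1 higher and 1 to 6 lower, 1 without ND tumor 1 or KD tumor 2, 3 or 4 and 3 without ND tumor 2 or 3. For KD nontumor against ND nontumor liver, the 0 higher became 2 with sample weights (Usp18 and Irgm2), and leaving out 1 library gave 0 in each direction, as it did for the difference of the tumor effects. In nontumor liver, 230 of all 13432 tested genes were higher and 203 lower with sample weights, against 1 and 5 in the main fit.

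The data did not show that replicate numbers pair the samples, and the labels do not say whether equal numbers mark the same mouse. Low correlations cannot exclude such pairs. Of 8 same-numbered tumor and nontumor pairs, 2 had deviations correlated above 0.1 (-0.112 to 0.164), 1 of 8 tumors correlated best with its own number, and the consensus correlation was -0.021. With the number as a random replicate block 28 of 28 calls were kept, and as a fixed block 18 of 23, with 1 member lower in ND tumor. Depth limits the weakest members, such as Gbp2 with 0 reads in 1 library.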
